A study of Mus musculus with 6 samples.

Results

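Mesothelium is the flat epithelium that lines the pleural, pericardial and peritoneal cavities, and it arises from mesoderm. Its cells are recognised by surface proteins such as mesothelin and uroplakins, by the transcription factor WT1 and by simple keratins. The gene targeted here, Nf2, encodes merlin, which acts upstream of the Hippo kinases and restrains the YAP and TAZ partners of TEAD transcription factors. NF2 is among the genes most often inactivated in human mesothelioma, a tumour of this lining. The 10 genes described here are known markers of mesothelium, namely Msln, Upk3b, Upk1b, Wt1, Lrrn4, Nkain4, Stmn2, Bnc1, Gpm6a and Muc16. They are 10 of the 55401 genes in the deposited table and were matched by symbol. They were chosen by their standing as markers and selected on the fold change between Nf2-knockout and control libraries, since Msln, Nkain4 and Stmn2 are among the genes with the largest rises. Their own differences between these groups are given as a description and without a test.

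Poly(A) RNA was sequenced from 3 Nf2-knockout and 3 control libraries of mouse primary chondrocytes, which are cartilage cells in culture, taken from cartilage tissue. Both groups carried the floxed Nf2 gene. The Nf2-knockout libraries are labelled as its knockout, and the driver of the deletion, the strain and the age are not given in the sources used here. Library names bear the tag D7 in both groups, which the labels do not explain. For the Nf2-knockout libraries the treatment label also names TCF21 overexpression, for the controls it reads control, and the titles name Nf2 alone. Total counts ran from 50906043 to 63748798 per library. Nf2 stood at 95.3 ± 6.59 CPM in Nf2-knockout libraries and 126.8 ± 5.32 CPM in controls (SD, n = 3 each), a log2 fold change of −0.41 (edgeR adjusted p = 0.0305) whose call stood in 0 of the 6 fits that leave 1 library out. Counts over the whole gene do not show the deleted part, which was not examined. CPM are counts scaled to library size by TMM, and FPKM are the authors' values, scaled to library size and exon length, which are used for levels between genes. Whether replicates are separate animals or cultures is not stated in the labels. The p-values thus measure the spread of these libraries alone, and that may be technical.

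The 10 genes fell into 3 kinds by level. Msln, Nkain4 and Stmn2 had well-measured transcripts in all 6 libraries and were several-fold higher in Nf2-knockout libraries. Upk3b, Upk1b, Gpm6a and Bnc1 had traces, at mean FPKM under 1 in both groups. Lrrn4 and Muc16 had 0 counts in all 6 libraries, and Wt1 had counts in 2 control libraries alone. By summed CPM, the 3 abundant genes made up 98.8% to 99.0% of the 10-gene total in Nf2-knockout libraries and 99.0% to 99.6% in controls. The data thus do not show the full marker set of mesothelium, and below the genes are called by their own names.

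**Figure D1:**
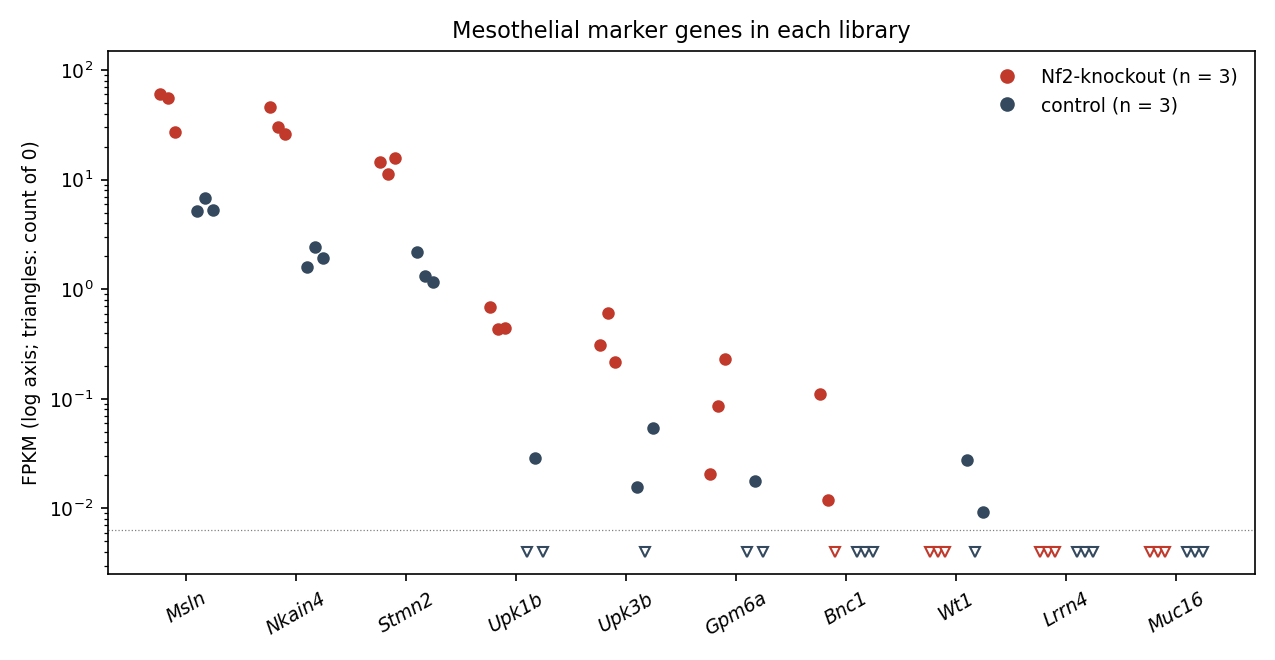
Level of each of the 10 genes in FPKM (log axis) in the 3 Nf2-knockout and the 3 control libraries, 1 symbol per library, with open triangles below the dotted line for a count of 0. Msln, Nkain4 and Stmn2 lie above 10 FPKM in each Nf2-knockout library and under 7 FPKM in each control library, while the other 7 genes stay under 1 FPKM.

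Msln encodes mesothelin, a glycoprotein held to the cell surface by a lipid anchor, which is abundant on mesothelium and in mesothelioma and binds the mucin MUC16. It was the most abundant of the 10 (ENSMUSG00000063011, chromosome 17, 25748613 to 25754377, minus strand, GRCm38). It had 60.9, 55.6 and 27.2 FPKM in Nf2-knockout replicates 1 to 3, and 5.19, 6.86 and 5.30 FPKM in control replicates 1 to 3. The groups did not overlap, and Nf2-knockout replicate 3 lay well under the other 2 knockout libraries. In CPM the lowest knockout library was 3.66 times the highest control. Mean levels were 157.9 ± 60.7 CPM in Nf2-knockout libraries and 20.5 ± 3.24 CPM in control libraries (SD, n = 3 each), a log2 fold change of 2.95 with a range of 2.76 to 3.24 over the 6 fits without 1 library. With 1080 to 1305 counts in each control library, Msln was not absent from control cultures. Among the 27103 genes with a count in at least 1 of the 6 libraries, its mean FPKM stood above that of 95.9% in Nf2-knockout libraries. In controls it stood above that of 77.8%.

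Nkain4 encodes a small membrane protein of the family that interacts with the β subunit of the sodium and potassium pump, best known from the nervous system. It lies on chromosome 2 (ENSMUSG00000027574, 180934772 to 180954699, minus strand). It had 45.6, 30.03 and 26.3 FPKM in Nf2-knockout replicates 1 to 3, and 1.59, 2.43 and 1.95 FPKM in control replicates 1 to 3. The groups stood far apart, with the lowest knockout library 9.996 times the highest control in CPM. The means were 45.3 ± 13.9 CPM in Nf2-knockout libraries and 2.85 ± 0.605 CPM in control libraries (SD, n = 3 each). The log2 fold change was 3.99, with a range of 3.74 to 4.16 without 1 library. Msln was above Nkain4 in FPKM in each of the 6 libraries, though barely in Nf2-knockout replicate 3, at 27.2 and 26.3 FPKM. The means of Msln and Nkain4 were 47.9 ± 18.1 and 34.0 ± 10.3 FPKM in Nf2-knockout libraries (SD, n = 3), where their ranges overlapped. In controls they were 5.79 ± 0.930 and 1.99 ± 0.421 FPKM (SD, n = 3). The difference within libraries was not tested.

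Stmn2 encodes stathmin 2, a microtubule-destabilising phosphoprotein of growing axons. It lies on chromosome 3 (ENSMUSG00000027500, 8509360 to 8561606, plus strand). It had 14.5, 11.2 and 15.7 FPKM in Nf2-knockout replicates 1 to 3, and 2.19, 1.31 and 1.17 FPKM in control replicates 1 to 3. Here the 3 knockout libraries were close together, and control replicate 1 was the highest of the controls. The means were 82.9 ± 13.6 CPM in Nf2-knockout libraries and 10.1 ± 3.52 CPM in control libraries (SD, n = 3 each), a log2 fold change of 3.04 with a range of 2.87 to 3.36 without 1 library. The deposited FPKM of Stmn2 divides by all its annotated exonic bases, which come to 5602 over 4 transcripts, whereas its longest coding transcript has 2073 bases. The same lengths are 3064 and 2165 bases for Msln and 1239 and 950 bases for Nkain4, so among these 3 the choice of length matters most for Stmn2. As deposited, Stmn2 (13.8 ± 2.34 FPKM in Nf2-knockout libraries, SD, n = 3) was below Msln and Nkain4 in each Nf2-knockout library.

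The 2 uroplakin genes were present as traces. Uroplakins are membrane proteins first known from the plaques of the bladder lining, and UPK3B and UPK1B also serve as markers of mesothelium. Upk3b (chromosome 5, 136038496 to 136046487, plus strand) had 62, 148 and 55 counts in Nf2-knockout replicates 1 to 3, and 4, 0 and 13 counts in control replicates 1 to 3. Its mean was 1.45 ± 0.794 CPM in Nf2-knockout libraries and 0.0984 ± 0.117 CPM in control libraries (SD, n = 3 each). The groups did not overlap. The fitted log2 fold change of 3.85 ran from 3.28 to 5.30 without 1 library, and rests on 17 control counts. Upk1b (chromosome 16, 38773184 to 38800328, minus strand) had 82, 62 and 66 counts in Nf2-knockout replicates 1 to 3, and 0, 4 and 0 counts in control replicates 1 to 3. Its mean was 1.18 ± 0.338 CPM in Nf2-knockout libraries and 0.0247 ± 0.0428 CPM in control libraries (SD, n = 3 each). Its log2 fold change of 5.504 rests on 4 control counts and became 9.14 without control replicate 2, which leaves a control count of 0. In mean FPKM, Upk3b (0.379 in Nf2-knockout) and Upk1b (0.518) were far under Stmn2, and their ranges over the knockout libraries overlapped.

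Gpm6a and Bnc1 were detected mainly in single knockout libraries. Gpm6a encodes a neuronal membrane glycoprotein of filopodia (chromosome 8, 54954843 to 55060871, plus strand). It had 4, 19 and 53 counts in Nf2-knockout replicates 1 to 3, and 0, 4 and 0 counts in control replicates 1 to 3. The groups are barely separated, at 0.0766 CPM in Nf2-knockout replicate 1 and 0.0742 CPM in control replicate 2. Bnc1 encodes basonuclin 1, a zinc finger protein of mesothelium, germ cells and basal keratinocytes (chromosome 7, 81966653 to 81992307, minus strand). It had 30, 4 and 0 counts in Nf2-knockout replicates 1 to 3, and 0, 0 and 0 counts in control replicates 1 to 3. With each count taken as 1 read, it was at least 10.6-fold higher over the Nf2-knockout group, against a floor of 3 counts over the control group. The groups overlapped because Nf2-knockout replicate 3 had 0. With 1 library left out, that bound ran from 1.75-fold (without Nf2-knockout replicate 1) to 16.7-fold (without Nf2-knockout replicate 3). Intervals and floors cover counting error only, and they take each count as 1 read. No count above 0 of the 10 genes was under 4, and counts may be rounded coverage estimates. The bounds may thus be too strong.

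Wt1, Lrrn4 and Muc16 were at or near 0 in both groups. Wt1 encodes the zinc finger transcription factor that marks mesothelium and its precursors and is used in the diagnosis of mesothelioma (chromosome 2, 105126529 to 105173612, plus strand). It had 0, 0 and 0 counts in Nf2-knockout replicates 1 to 3, and 12, 0 and 4 counts in control replicates 1 to 3. If each count is 1 read, a count of 0 over the knockout group allows a level of up to 0.0165 CPM. Wt1 would then be at least 5.71-fold lower there than the control group's pooled level of 0.0940 CPM. The groups overlap at 0 in control replicate 2. The counts of Wt1 above 0 were 12 and 4, so 1 read may have given more than 1 count, and the bound may be too strong. With 1 library left out, that bound ran from 2.19-fold (without control replicate 1, which holds 12 of the 16 counts) to 8.35-fold (without control replicate 2). Lrrn4, a leucine-rich repeat membrane protein gene known as a marker of primary mesothelial cells (chromosome 2, 132868305 to 132880891), and Muc16, the gene of the mucin that carries the CA125 antigen (chromosome 9, 18495455 to 18622235), had 0 counts in each library. At this depth, and with each count taken as 1 read, that allows up to 0.0165 CPM in Nf2-knockout libraries and 0.0176 CPM in control libraries.

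Of the 10 genes, 5 passed the filter on low counts and 5 did not (Wt1, Lrrn4, Bnc1, Gpm6a and Muc16). A gene that passed through the group where it is high had to differ. edgeR called 4 of the 10 higher (Msln, Nkain4, Stmn2 and Upk1b) and 0 lower, where 4.11% of the 18218 tested genes were called higher and 5.18% lower. In 6 of the 10 all knockout libraries lay above all controls, where 15.5% of tested genes did. The groups were apart in either direction in 32.9% of tested genes, and the knockout libraries lay below in 17.4%. Nothing is read from these counts, because the genes were selected on that contrast. The call of Upk1b was lost in 5 of the 6 fits without 1 library, and held without control replicate 2. Over all tested genes 1693 were called (9.29%), 749 higher and 944 lower, so that 44.2% of calls were rises, while limma on FPKM called 974 higher and 584 lower (62.5%). In fold change, Upk1b ranked 24, Nkain4 34, Upk3b 40, Stmn2 80 and Msln 94 among the 18218 tested genes.

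**Figure D2:**
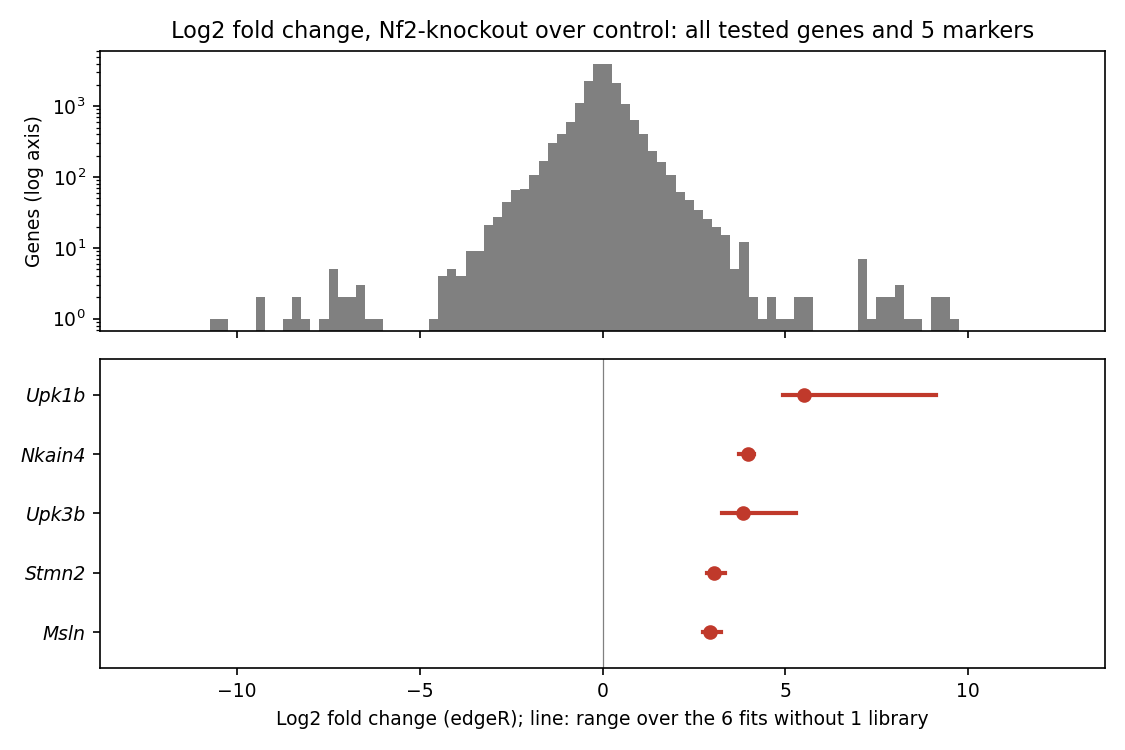
Log2 fold change of Nf2-knockout over control (edgeR) for all 18218 tested genes as a histogram with a log axis for the number of genes (top), and for the 5 genes that passed the filter as points with lines for the range over the 6 fits without 1 library (bottom). Nkain4, Stmn2 and Msln have short lines, from 2.76 to 4.16 in all, and Upk1b runs from 4.93 to 9.14.

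The single Nf2-knockout libraries did not rank alike across the genes. Nf2-knockout replicate 3 was the lowest of the 3 for Msln, at 0.561 of the group mean, for Nkain4 at 0.765 and for Upk3b at 0.567. The same library was the highest for Stmn2, at 1.13 of the group mean, and for Gpm6a at 2.03. Nf2-knockout replicate 1 was the highest for Msln (1.27), Nkain4 (1.35), Upk1b (1.33) and Bnc1 (2.70), and the lowest for Gpm6a (0.196). Nf2-knockout replicate 2 was the highest for Upk3b, at 1.62 of the group mean, and the lowest for Stmn2 at 0.816. The highest knockout library was 2.27 times the lowest for Msln, 1.76 times for Nkain4 and 1.38 times for Stmn2. Among the controls, replicate 2 was the highest for Msln (1.18 of the group mean) and Nkain4 (1.22), whereas replicate 1 was the highest for Stmn2 (1.40). So in both groups Msln and Nkain4 had the same library on top, and Stmn2 another. With 3 libraries a group no test of such an order was made.

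**Figure D3:**
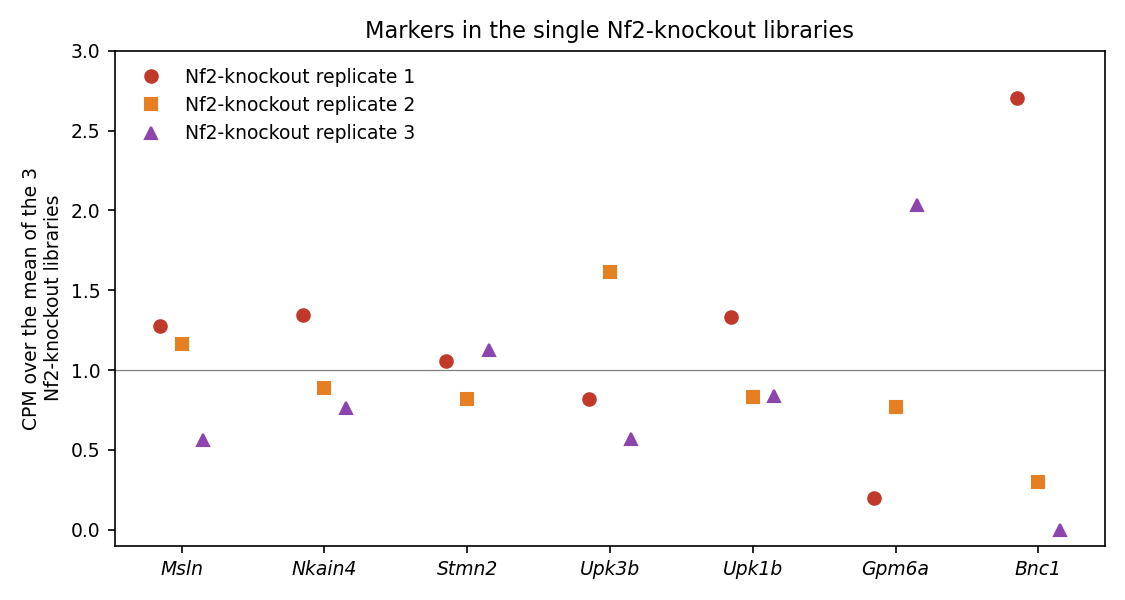
CPM of each gene in the single Nf2-knockout libraries, divided by the mean of the 3 Nf2-knockout libraries, for the 7 genes with a count there. Replicate 3 (triangles) is lowest for Msln, Nkain4 and Upk3b and highest for Stmn2 and Gpm6a.

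Other genes of mesothelium, which are not among the 10, moved in part. Of a list of 27 such genes, 19 passed the filter, of which 6 rose, 1 fell and 12 did not pass the test. That is 36.8% of those tested, against 9.29% of all tested genes, and the list median was 0.18 on the log2 scale, against −0.01 for all tested genes. This list too was chosen with earlier results of these data known, so its share is a description only. Keratins of simple epithelia led the rises. Krt7 stood at 59.3 ± 7.96 CPM in Nf2-knockout libraries and 13.6 ± 6.06 CPM in control libraries (log2 fold change 2.12, SE 0.301, adjusted p = 0.0096 by edgeR). Krt19 stood at 7.04 ± 1.56 CPM in Nf2-knockout libraries and 1.78 ± 0.192 CPM in control libraries (1.98, SE 0.241, edgeR adjusted p = 0.00603). Of their partners in simple epithelia, Krt18 had 122, 88 and 94 counts in Nf2-knockout replicates 1 to 3 and 97, 58 and 104 counts in controls 1 to 3, while Krt8 had 8, 8 and 4 counts in Nf2-knockout libraries against 0, 8 and 0 in controls.

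The other rises were genes of membrane and surface proteins. Anxa8, which encodes a calcium-dependent membrane-binding annexin, stood at 537 ± 97.0 CPM in Nf2-knockout libraries and 226 ± 48.3 CPM in controls (log2 fold change 1.25). Thbd, the gene of the anticoagulant receptor thrombomodulin, stood at 303.2 ± 37.6 CPM in Nf2-knockout libraries and 156 ± 7.62 CPM in controls (0.96). Bcam, a laminin-binding adhesion molecule, rose by 1.18 on the log2 scale, and Tmem151a, a transmembrane protein gene, by 1.00. The edgeR adjusted p of these 4 genes ran from 0.00498 to 0.0107, and all 6 rises of the list were held in each of the 6 fits without 1 library. The fall was Rarres2, the gene of the chemoattractant chemerin, at 25.9 ± 1.27 CPM in Nf2-knockout libraries and 59.2 ± 14.9 CPM in control libraries (−1.19, edgeR adjusted p = 0.0129). Leaving out Nf2-knockout replicate 1 (edgeR adjusted p = 0.0640) or 3 (0.0512) ended that call. The list median also turned negative with Nf2-knockout replicate 1 (−0.03) or control replicate 2 (−0.02) left out.

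**Figure D4:**
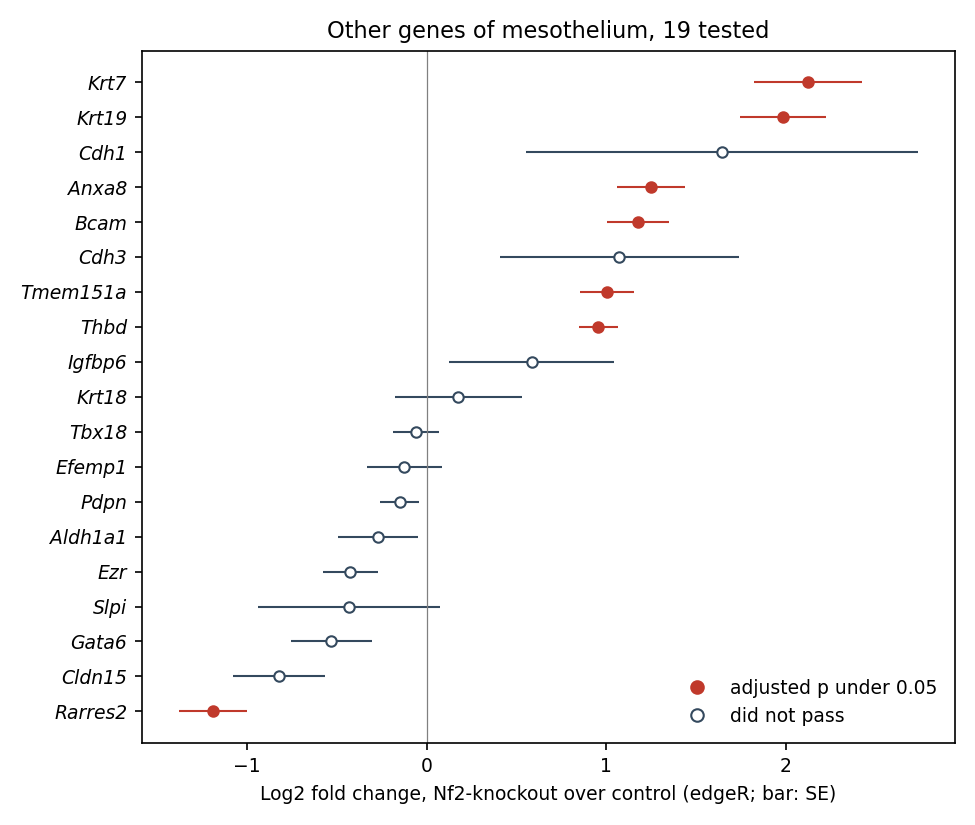
Log2 fold change (edgeR) of Nf2-knockout over control for the 19 tested genes of the list of other mesothelial genes, with SE as bars. Filled points passed an adjusted p of 0.05. The 6 rises run from 0.96 to 2.12, and Cdh1 (1.64) and Cdh3 (1.07), which did not pass, lie in the same range.

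Aldh1a1, Pdpn and Efemp1 had the highest mean CPM of that list over both groups and did not pass the test, while Anxa8, which rose, was the highest in FPKM in Nf2-knockout libraries, at a mean of 266. Aldh1a1, a retinaldehyde dehydrogenase gene, stood at 708 ± 93.4 CPM in Nf2-knockout libraries and 853 ± 247 CPM in controls (edgeR adjusted p = 0.518). Pdpn, the gene of podoplanin, a surface glycoprotein also of fibroblasts, stood at 449 ± 57.3 CPM in Nf2-knockout libraries and 499 ± 16.5 CPM in controls (edgeR adjusted p = 0.451). Efemp1, the gene of fibulin 3, stood at 387 ± 11.2 CPM in Nf2-knockout libraries and 421 ± 124 CPM in controls (edgeR adjusted p = 0.771), with a sign that differed between scalings. Calb2, the gene of calretinin, and Itln1, the gene of intelectin 1, had 0 counts in each library. Aldh1a2, which makes retinoic acid in mesothelium, did not pass the filter and had 0, 0 and 8 counts in Nf2-knockout replicates 1 to 3 and 196, 22 and 8 counts in controls 1 to 3, most of them in control replicate 1. Tcf21, the factor named in the treatment label, had 0, 2 and 0 counts in Nf2-knockout replicates 1 to 3 and 0, 0 and 0 counts in controls 1 to 3. The summed level of the list overlapped between the groups, at 2709 to 2971 CPM in Nf2-knockout libraries and 2211 to 2975 CPM in controls. In bulk RNA, a change in the number of cells of a type and a change in RNA per cell cannot be told apart.

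Genes of the same families, called paralogues here and chosen without a sequence comparison, were read in the same fit, with none for Wt1. Of 20 paralogues, 12 were tested, 0 rose and 1 fell, or 8.33% against 9.29% of all genes, with 5 of the 12 at an unadjusted p under 0.05, against 24.8% of all tested genes. DESeq2 called 2 higher, Lrrn3 and Upk3bl, and 1 lower, and limma on FPKM called Lrrn3 higher. Lrrn3, a leucine-rich repeat neuronal protein gene, stood at 16.9 ± 0.607 CPM in Nf2-knockout libraries and 11.0 ± 2.15 CPM in control libraries (log2 fold change 0.62, edgeR adjusted p = 0.0632). The fall was Lrrn4cl, an LRRN4 C-terminal-like gene, at 22.1 ± 1.80 CPM in Nf2-knockout libraries and 40.2 ± 5.30 CPM in control libraries (log2 fold change −0.86, edgeR adjusted p = 0.0108). The ubiquitous stathmin gene Stmn1 stood at 60.1 ± 18.9 CPM in Nf2-knockout libraries and 46.5 ± 9.38 CPM in control libraries (edgeR adjusted p = 0.405), and Stmn3 had 0 counts in each library. Gpm6b, the close relative of Gpm6a, stood at 66.1 ± 13.2 CPM in Nf2-knockout libraries and 75.1 ± 5.94 CPM in control libraries (edgeR adjusted p = 0.52). Among the uroplakins, Upk2 and Upk3a had 0 counts in each library, and Upk1a had 23, 50 and 36 counts in Nf2-knockout replicates 1 to 3 and 59, 31 and 31 counts in controls 1 to 3. Mslnl, the mesothelin-like gene, and Nkain3 had 0 counts in each library.

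The genes next to the members were read in the same fit. The 5 tested genes lie on 5 chromosomes, and 0 of their 10 nearest tested neighbours were called by edgeR and 1 by DESeq2. Of all tested genes, edgeR called 9.29%. Of these 10 neighbours, 3 had an unadjusted p under 0.05 in edgeR, against 24.8% of all tested genes. The gene called by DESeq2 was Upk3bl, a uroplakin 3B-like gene 8005 bases beyond Upk3b. It had 136, 76 and 110 counts in Nf2-knockout replicates 1 to 3 and 48, 13 and 32 counts in controls 1 to 3 (log2 fold change 1.75, edgeR adjusted p = 0.0897). Next to Msln, Rpusd1 stood at 17.2 ± 1.22 CPM in Nf2-knockout libraries and 12.62 ± 1.84 CPM in control libraries (edgeR adjusted p = 0.113), and Ciao3 at 26.5 ± 2.69 CPM in Nf2-knockout libraries and 30.03 ± 0.953 CPM in control libraries (edgeR adjusted p = 0.358). Next to Nkain4, Arfgap1 and Ythdf1 had log2 fold changes of 0.04 and −0.05. The antisense gene Gm14341, which overlaps the 5′ end of Nkain4 on the other strand, had at most 12 counts in a library, against 2316 to 3189 of Nkain4 in Nf2-knockout libraries.

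RefSeq promoter windows (GRCm38.p6, 250 bases before to 50 after a start) matched 5 of the 10 genes, with 6 windows, and did not cover Msln, Nkain4, Stmn2, Upk1b and Wt1. Because merlin acts upstream of TEAD factors, both strands were searched for GGAATG, the core of the TEAD motif, together with the AP-1 motif TGAGTCA and the GC box GGGGCGG. No window of these genes held more than 1 of the 3 motifs, so no matches overlap. GGAATG was found in 3 of the 6 windows, against 14.7% of all 32851 windows, TGAGTCA in 0 of 6, against 5.2%, and GGGGCGG in 1 of 6, that of Bnc1, against 23.2%. The 3 windows with GGAATG are shown for the 250 bases before the start, 5′ to 3′ in the direction of the gene, with the match in capitals (CATTCC is the same motif on the other strand). They belong to the traces Upk3b (chr5:136038246-136038495, plus strand) and Gpm6a (chr8:54779184-54779433, plus strand, the farther upstream of its pair of starts), and to Lrrn4 (chr2:132880863-132881112, minus strand), which had 0 counts. The Gpm6a window shown lies outside the counted gene, which begins at 54954843. The other Gpm6a window (chr8:54954478-54954727), near that position, held none of the 3 motifs.
Upk3b: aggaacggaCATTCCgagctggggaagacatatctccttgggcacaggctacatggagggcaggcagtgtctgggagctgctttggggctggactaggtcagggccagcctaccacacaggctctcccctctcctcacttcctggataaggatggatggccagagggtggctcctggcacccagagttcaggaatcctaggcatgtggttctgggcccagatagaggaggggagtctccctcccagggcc
Gpm6a: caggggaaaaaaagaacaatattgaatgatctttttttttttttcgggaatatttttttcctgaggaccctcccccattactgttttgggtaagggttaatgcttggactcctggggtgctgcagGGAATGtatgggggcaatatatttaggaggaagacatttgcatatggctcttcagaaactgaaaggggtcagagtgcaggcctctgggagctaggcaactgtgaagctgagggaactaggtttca
Lrrn4: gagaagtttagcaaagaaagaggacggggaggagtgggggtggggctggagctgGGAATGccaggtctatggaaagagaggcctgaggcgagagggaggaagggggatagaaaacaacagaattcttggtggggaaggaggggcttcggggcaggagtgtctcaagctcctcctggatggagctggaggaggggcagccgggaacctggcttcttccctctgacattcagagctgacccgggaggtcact
The match begins 241 bases before the start in Upk3b, 125 in Gpm6a and 196 in Lrrn4. It is therefore in windows of genes with traces and of a gene with none, and a match is a description of letters, not a site of binding.

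Over the 6 libraries, the 8 genes most like the mean profile of the 5 tested genes were taken by Pearson correlation of log2(CPM + 0.5). Genes with Gm, Rik and other provisional symbols were skipped. The 8 were Sema3d, Serpinb9g, Zbtb7b, Bcam, Cyp4a12b, C77080, Cdo1 and Cdk6, with r from 0.997 (Cdk6) to 0.999 (Sema3d). Of the 18213 genes compared, 386 (2.12%) had an r of at least 0.95. The 6 points are the same libraries that selected the members, and they fall in 2 groups, so r is a description only. Sema3d, a secreted semaphorin gene, stood at 54.8 ± 8.83 CPM in Nf2-knockout libraries and 12.58 ± 0.548 CPM in control libraries (log2 fold change 2.12). Cdo1, the gene of cysteine dioxygenase, stood at 423 ± 45.4 CPM in Nf2-knockout libraries and 190.5 ± 2.67 CPM in controls, and Cdk6, a kinase that drives entry into the cell cycle, at 47.9 ± 4.06 CPM in Nf2-knockout libraries and 28.8 ± 0.565 CPM in control libraries. Cyp4a12b had 74, 71 and 67 counts in Nf2-knockout replicates 1 to 3 and 0, 0 and 0 counts in controls 1 to 3. With each count taken as 1 read, it was at least 66.1-fold higher over the group (43.1-fold to 71.3-fold with 1 library left out). As counts may be rounded coverage estimates, that bound may be too strong. Cyp4a12b has a near-identical copy, Cyp4a12a, and how reads were split between them is not known.

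Markers of other cells that share some of the 10 genes were set beside them, since Stmn2, Gpm6a and Nkain4 are also genes of neurons. Of 18 genes of neurons and glia, 7 were tested, 1 rose and 0 fell. That is 14.3% of those tested, against 9.29% of all tested genes. The rise was Map2, a microtubule-associated protein gene of dendrites, at 16.1 ± 7.65 CPM in Nf2-knockout libraries and 2.06 ± 1.40 CPM in control libraries (edgeR adjusted p = 0.0346). That call stood in 2 of 6 leave-one-out fits, those that left out Nf2-knockout replicate 2 or control replicate 3. Other neuronal genes of the list were detected and did not pass: Tubb3 had 75, 81 and 98 counts in Nf2-knockout replicates 1 to 3 and 163, 104 and 151 counts in controls 1 to 3, and Syn1 had 121, 183 and 161 counts in Nf2-knockout replicates 1 to 3 and 268, 173 and 179 counts in controls 1 to 3. Syt1 had 58, 95 and 63 counts in Nf2-knockout replicates 1 to 3 and 69, 29 and 19 counts in controls 1 to 3, and Gap43 had 0, 0 and 38 counts in Nf2-knockout replicates 1 to 3 and 35, 30 and 28 counts in controls 1 to 3. The 11 genes that were not tested had at most 20 counts in a library, and 3 of them, Elavl4, Rbfox3 and Stmn3, had 0 in each. S100b, a gene of glia and of cartilage (edgeR adjusted p = 0.255), held most of the summed level of that list, which was 140.9 to 214 CPM in Nf2-knockout libraries and 108 to 143 CPM in controls. Ngfr, the low-affinity neurotrophin receptor gene, stood at 6.56 ± 0.579 CPM in Nf2-knockout libraries and 7.06 ± 0.477 CPM in control libraries. The part of such cells in the level of Stmn2 was not tested.

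Epithelial markers were close to absent. Of 13, only Cdh1 and Trp63 were tested, 0 were called by edgeR or DESeq2 and 0 had an unadjusted p under 0.05. Of all tested genes, edgeR called 9.29%, and 24.8% had an unadjusted p under 0.05. Their sum was 3.79 to 7.16 CPM in Nf2-knockout libraries and 3.69 to 6.29 CPM in control libraries. Trp63 alone stood at 4.51 ± 1.61 CPM in Nf2-knockout libraries and 4.36 ± 1.26 CPM in control libraries, Cdh1, the gene of E-cadherin, at 0.51 ± 0.0709 and 0.162 ± 0.178 CPM, and Esrp1, Ovol1 and Rab25 had 0 counts in each library. Podocyte markers were added because podocytes express Wt1. Synpo, an actin-associated protein gene of podocytes, stood at 58.2 ± 3.36 CPM in Nf2-knockout libraries and 75.6 ± 38.1 CPM in control libraries (edgeR adjusted p = 0.519). The podocyte gene Nphs1 differed widely between knockout libraries, with 1639, 660 and 5843 counts in Nf2-knockout replicates 1 to 3 and 712, 1197 and 853 counts in controls 1 to 3 (edgeR adjusted p = 0.26).

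Of 7 markers of the synovial lining, all of them tested, 2 rose and 0 fell, or 28.6% against 9.29% of all tested genes. The lubricin gene Prg4 stood at 37.6 ± 17.3 CPM in Nf2-knockout libraries and 35.7 ± 1.31 CPM in control libraries (edgeR adjusted p = 0.912). The rises were Clic5 (log2 fold change 2.23, held in 2 of 6 fits without 1 library) and Tspan15 (1.11, held in 1). Cd55 stood at 90.9 ± 10.2 CPM in Nf2-knockout libraries and 112 ± 11.4 CPM in controls and Hbegf, an EGF receptor ligand gene, at 42.7 ± 6.56 and 43.8 ± 4.46 CPM, and neither passed. Of 5 markers of perineurial cells, 4 were tested, and Itgb4, the integrin β4 gene, rose, at 12.8 ± 3.39 CPM in Nf2-knockout libraries and 2.34 ± 0.191 CPM in control libraries (2.45, edgeR adjusted p = 0.00373). Slc2a1 (edgeR adjusted p = 0.523) and Cldn1 (0.439) did not pass. The summed level of that list was 74.1 to 93.2 CPM in Nf2-knockout libraries and 74.2 to 91.8 CPM in control libraries, and that of the synovial list 172 to 235 and 204.5 to 231 CPM.

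The labelled cell type was checked with 18 cartilage and 10 fibroblast genes, all of them tested. Cartilage genes summed to 1082 to 2041 CPM in Nf2-knockout libraries and 955 to 1431 CPM in controls. Of these 18, 1 rose and 1 fell, or 11.1% against 9.29% of all tested genes. The median of the cartilage list was −0.18 on the log2 scale, against −0.01 for all tested genes, and turned to 0.06 without Nf2-knockout replicate 3. Col2a1, the main cartilage collagen, rose (581 ± 223 CPM in Nf2-knockout libraries and 231 ± 50.7 CPM in controls) and Col9a2 fell (23.8 ± 11.7 and 70.04 ± 17.2 CPM), and each call was held in 1 of the 6 fits without 1 library. Fibroblast genes summed to 8609 to 10890.4 CPM in Nf2-knockout libraries and 12431 to 15886 CPM in controls. With edgeR they had 0 rises and 2 falls, or 20.0% against 9.29% of all tested genes. The falls were Pdgfra (229 ± 39.7 and 615 ± 21.5 CPM, held in 6 of 6 fits) and Lum (837 ± 441 and 2881 ± 281 CPM, held in 2). Comp (448 ± 144 and 377 ± 75.6 CPM) and Col11a1 (372 ± 57.7 and 272 ± 66.04 CPM) of the cartilage list did not pass in edgeR, nor did Col1a1, Col1a2 and Col3a1 of the fibroblast list, each between 2177 and 3125 CPM on average in both groups. DESeq2 called 4 fibroblast genes lower, namely Col1a2, Dcn, Lum and Pdgfra. Of the cartilage genes it called Col2a1 higher and Col9a2 and Cnmd lower. Dcn stood at 367 ± 138 CPM in Nf2-knockout libraries and 715 ± 24.5 CPM in controls (edgeR adjusted p = 0.0557). Markers of both kinds were present in all 6 libraries. The fibroblast sum was lower in the Nf2-knockout libraries, where Msln, Nkain4 and Stmn2 stood higher, and its part in that difference was not tested.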

How the data were processed

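One deposited table was used. The authors deposited a whole-number count and an FPKM value (scaled to library size and exon length) for each gene and library, and a count of 0 is written there as an FPKM of 0.0001. Per the submitters' processing notes, cutadapt 1.9, HISAT2 2.0.4, StringTie 1.3.4d and edgeR were used, and their roles are not given in the sources used here. Counts may be rounded coverage estimates, and the strand setting is not given. Gene positions in the table equal those of GENCODE M21 (GRCm38) for 94.2% of 55141 genes. The length behind FPKM was within 0.988 to 1.02 of the summed exon length (5th and 95th percentile of 13274 genes with a mean count of at least 100).

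Counts were tested with edgeR 4.0.16 (R 4.3.3; filterByExpr, TMM, two-sided quasi-likelihood test, group as the sole term). P-values were adjusted by Benjamini-Hochberg over all 18218 tested genes, with a threshold of 0.05. Each SE was derived from the fold change and the F statistic. CPM use TMM-scaled totals. DESeq2 1.42.0 and limma 3.58.1 on log2(FPKM + 0.1) were alternatives, besides other scaling, no filter, a replicate block and leaving out each library. Members and lists were chosen with earlier results of these data known. All members are named. From each other list all calls are named, or the 6 with the smallest p where over 5 were called, plus the 3 with the highest mean CPM. A result of the podocyte list is not reported here. Rarres2, Upk1a, Lrrn3, Upk3bl, Cdh3, Dcn, Cnmd, the flanking genes and the genes named for low counts were chosen after their values were seen.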

Additional observations from a re-analysis of the deposited data

How the results depend on the processing

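Msln, Nkain4, Stmn2, Upk3b and Upk1b kept a positive log2 fold change in all 13 alternatives, and Msln stayed within its spread between replicates (2.76 to 3.24). With a pseudocount of 1 on FPKM, Nkain4 came to 3.52, Stmn2 to 2.54, Upk3b to 0.42 and Upk1b to 0.58. With a pseudocount of 0.1, filtered or not, Upk3b came to 1.895 and Upk1b to 2.48, since a pseudocount outweighs such low FPKM. Without 1 library, Upk3b ran from 3.28 to 5.30 and Upk1b from 4.93 to 9.14.

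All 1693 calls became 2955 with DESeq2, 923 with the replicate block and 36 with unfiltered FPKM. Without 1 library they ran from 629 (without Nf2-knockout replicate 1) to 1186, with 705 when control replicate 2 was left out, 744 for Nf2-knockout replicate 3 and 973 for control replicate 1. Of the other mesothelial genes, 6 rises stood in each alternative except unfiltered FPKM (0). The fall became 2 with DESeq2, 0 with unfiltered FPKM and 0 to 1 without 1 library. The paralogue call became 3 with DESeq2, 2 in limma on FPKM with either pseudocount and 0 unfiltered. Of markers of other cells, 9 were called, 4 with the replicate block, 5 with a pseudocount of 1, 0 unfiltered and 3 to 8 without 1 library. The cause of these shifts was not tested.

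Same-numbered libraries showed no common deviation (correlations −0.06, 0.04 and 0.02), and other pairs ran from −0.12 to 0.10. With 3 libraries a group such values cannot decide whether libraries were paired, which the labels do not state. With the replicate block Upk1b came to 5.83 and its call was lost, and the reason was not tested. Across settings, the called genes of the lists and the 3 with the highest mean CPM of each list were followed. Among these, signs turned for 6 genes that did not pass, and the other genes of the lists were not followed. Without 1 library, Col1a1 ran from −0.11 to 0.16, Efemp1 from −0.35 to 0.055, Hbegf from −0.15 to 0.066, Prg4 from −0.33 to 0.33, Synpo from −0.59 to 0.12 and Trp63 from −0.24 to 0.29. In limma on FPKM, Efemp1 turned to 0.025 (0.024 with a pseudocount of 1) and Hbegf to 0.055 (0.050 with a pseudocount of 1). With the replicate block, Prg4 turned to −0.024. Depth limits Gpm6a, Bnc1, Wt1 and the uroplakin genes, which have few counts in 1 or both groups.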
